A study of Arabidopsis thaliana with 77 samples.

Results

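Episuppressor line 3-75 of Arabidopsis thaliana carried 444 single-base changes on chromosomes 1 to 5 that were listed in the same form in none of the other 4 sequenced libraries of the series. They were chosen from the deposited variant calls of 3-75 by 3 rules: none of the other 4 call lists held the position with the same called base or set of bases, the call quality was at least 50, and the depth was at least 10 reads. At 4 of them, each with more than 1 called base, another library listed a different base or set at the position. The 444 own calls made up 6.44% of the 6891 calls of 3-75, and 1659 calls of any quality were specific to the line. Over the 5 libraries together, 15725 different variants were called. For comparison, 2883 calls were present in all 5 libraries, of which 1957 passed the same limits in 3-75 and are called the common calls here.

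Line 3-75 was sequenced from rosette leaves of 4-week-old Columbia plants with the genotype rdr1 rdr2 rdr6 ddm1, as were the lines 2-69, 2-20 and 3-72. The fifth library was labelled rdr1 rdr2 rdr6 and lacks ddm1 in its label. The title of the series concerns retrotransposons, small RNAs and centromere function, and its design text calls these lines suppressors of rdr1 rdr2 rdr6 ddm1. Each line was represented by 1 library, the labels do not say how the lines were made or how many plants were pooled, and p-values were therefore not computed.

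DDM1 is a chromatin remodeller that keeps transposons of the pericentromeric heterochromatin methylated and silent. RDR1, RDR2 and RDR6 are RNA-dependent RNA polymerases that make double-stranded RNA, the source of small interfering RNAs. A self-fertilised plant passes a heterozygous change on in both the homozygous and the heterozygous state, and neighbouring changes are inherited together until a crossover separates them, so genotypes along a chromosome fall into blocks.

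The targeted loci came first, since they check the label of 3-75 in part. The check covers DDM1 and RDR6 only, not RDR1 and RDR2. The DDM1 missense change C615Y (AT5G66750, chromosome 5, G26652152A) was read in 7 of 7 high-quality reads in 3-75, against 9 of 19 in the library whose label is rdr1 rdr2 rdr6, where it was called heterozygous. The RDR6 stop codon R269* (AT3G49500, chromosome 3, G18352401A) was homozygous in 3-75 with 29 of 29 reads and in that library with 23 of 23. An own call is therefore missing from the call list of a plant or pool in which the ddm1 change was present in about as many reads as the reference base. A position missing from that list may be unchanged or too shallow there.

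Nearly all own calls were G/C to A/T changes, which were less frequent among the common calls. They numbered 422 of 444 own calls (95.05%, 95% Wilson interval 92.6 to 96.7), against 356 of 1957 common calls (18.2%, 16.5 to 20.0). The remaining 22 own calls were 7 A/T to G/C changes and 15 transversions. Transversions formed 47.5% of the common calls and A/T to G/C changes 34.3%. Own calls of the other lines showed a similar class share, with 96.0% G/C to A/T in 2-69, 96.2% in 2-20 and 96.8% in 3-72, against 28.6% of the 42 calls that only the rdr1 rdr2 rdr6 library had. All intervals given here cover counting error only, since each line had 1 library. They count calls as independent, although neighbouring calls are inherited together. Intervals of read shares also count each read as independent, since the reads carried no molecular identifiers.

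The quality and depth limits that chose the own calls also select for clear read shares, so the read values are a description. The median depth was 18 reads (quartiles 14 and 24), and all 444 own calls had reads of the called base on both strands. Of the 319 homozygous own calls, 302 had no read of the reference base. The 125 heterozygous own calls had a median of 56.2% of reads with the called base (quartiles 48.0 and 61.5), and over all of them 52.2% of the reads carried it. The exact 95% interval of the read share lay below 50% in 3 of them, above 50% in 3, and included 50% in the rest. With a quality minimum of 30 the median share of the heterozygous calls was 47.4%, and among the line-specific calls outside the limits it was 33.3%. The common calls were deeper, with a median of 44 reads, and 458 of 788 homozygous common calls had no reference read.

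**Figure D1:**
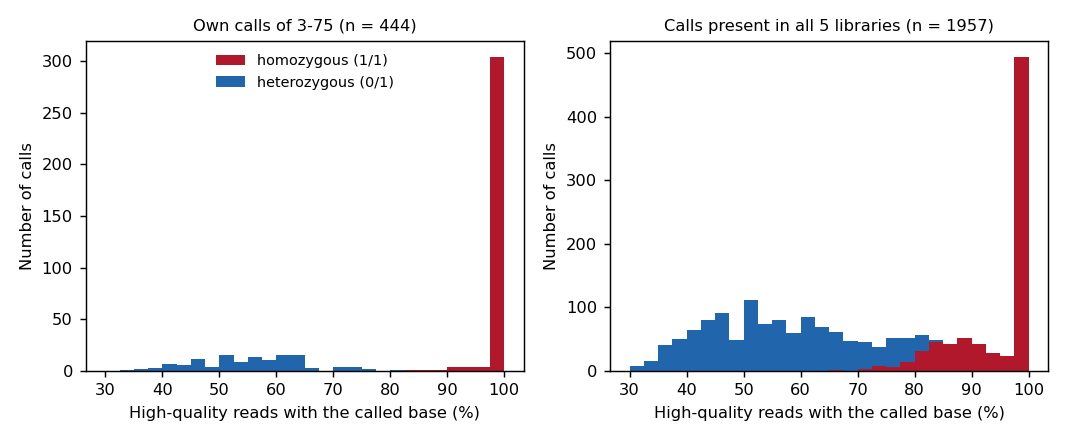
Number of calls (vertical axis) by the percentage of high-quality reads that carry the called base (horizontal axis), for the 444 own calls of 3-75 on the left and the 1957 common calls read in 3-75 on the right, stacked by called genotype. The heterozygous own calls gather around a median of 56.2% and 302 homozygous ones have no reference read, while the common calls spread over the whole range.

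The quality limit acts differently on the 2 genotypes, because a heterozygous call reaches a lower quality at the same depth. In the quality range from 50 to under 100, 35 of 153 own calls were homozygous (22.9%), against 196 of 203 from 100 to under 150 (96.6%) and 88 of 88 at 150 or more. The homozygous share of 3-75 is therefore given as it stands at these limits: 319 of 444 own calls (71.8%, 67.5 to 75.8), against 788 of 1957 common calls (40.3%, 38.1 to 42.5). Just inside the quality limit lay G313430A in AT2G01690 (9 of 17 reads) and C9203501T in AT4G16265 (11 of 19 reads), both at quality 50. Just outside it, at quality 49, lay C19481T on chromosome 2 (14 of 43 reads) and G12634296A on chromosome 3 (7 of 13 reads). At the depth limit, C2339370T and G6034498A on chromosome 1 were kept at 10 reads, and C1922383T and C2767237T on chromosome 1, each homozygous with 9 of 9 reads, were left out.

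Homozygous calls dominated 4 chromosomes and heterozygous calls the other. On chromosome 1, 112 of 127 own calls were homozygous (88.2%), on chromosome 2, 66 of 77 (85.7%), and on chromosome 4, 59 of 67 (88.1%). Chromosome 5 had 72 of 105 (68.6%, 59.2 to 76.7). Chromosome 3 had only 10 of 68 (14.7%), the lowest share. Among G/C to A/T own calls alone, chromosome 3 was also the lowest in 2-69 (66 of 242, 27.3%) and in 3-72 (18 of 117, 15.4%). In 2-20 it had 0 of 91, and chromosome 1 had 0 of 130. A low homozygous share of chromosome 3 is thus not particular to 3-75, where it was 9 of 63 (14.3%) in this class. Calls of a chromosome are linked, and 54 of the heterozygous chromosome 3 calls of 3-75 lay in 1 block described below. The intervals count linked calls as independent, so they do not measure a difference between chromosomes. The own calls themselves were spread at 4.17, 3.91, 2.90, 3.605 and 3.89 per Mb on chromosomes 1 to 5. The lowest density was that of chromosome 3 (95% Poisson interval 2.25 to 3.67) and the highest that of chromosome 1 (3.48 to 4.97), and their intervals overlapped. The quality limit leaves out mostly heterozygous calls, and its part in the low density of chromosome 3 was not tested.

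The genotypes changed few times along a chromosome. Runs of at least 5 consecutive G/C to A/T own calls of 1 genotype were taken as blocks, and there were 17 homozygous blocks with 306 of the 422 calls and 5 heterozygous blocks with 91. The homozygous blocks covered 78.3 Mb, or 65.7% of the 5 chromosomes, and the heterozygous blocks 23.7 Mb, or 19.9%. Calls lay about as densely in both kinds of block, at 3.91 per Mb in homozygous blocks (3.48 to 4.37) and 3.84 per Mb in heterozygous blocks (3.09 to 4.72). When a lone call of the other genotype was not allowed to end a run, the 17 homozygous blocks joined into 10, and the number of heterozygous blocks was still 5. The blocks depend on the limits: with a quality minimum of 100 there were 6 homozygous blocks over 87.4 Mb and 0 heterozygous blocks, and with a depth minimum of 20 there were 8 homozygous blocks over 64.3 Mb and 3 heterozygous blocks over 19.8 Mb.

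The longest homozygous block ran over the right arm of chromosome 1 from 16735443 to 30045097, with 50 calls over 13.3 Mb and the called base in 845 of 847 reads. The second in length covered chromosome 2 from 8591256 to 18674325, with 32 calls and 601 of 602 reads. The third covered chromosome 4 from 10237952 to 18526748, with 25 calls and 495 of 497 reads. Nearly every read in these 3 stretches carried the change.

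The longest heterozygous block covered most of chromosome 3, from 4692259 to 20931317, with 54 calls over 16.2 Mb and the called base in 669 of 1229 reads (54.4%). The next covered the left end of chromosome 5 from 34786 to 3251046, with 19 calls and 235 of 438 reads (53.7%). Another, at the left end of chromosome 2 from 166202 to 2068820, held 6 calls and 71 of 121 reads (58.7%). Chromosome 3 also had the longest end without an own call: the last 2.53 Mb of its right arm held none, against 1.02 Mb on chromosome 2 and at most 0.383 Mb at the right ends of the other 3.

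The loci of the parental genotype lay in blocks of both kinds. RDR1 lay in the homozygous block of chromosome 1 that ran from 2339370 to 6509178. RDR2 lay in the homozygous block of chromosome 4 from 2212225 to 8971042. DDM1 lay in the last homozygous block of chromosome 5, from 20924783 to 26881611. RDR6 lay inside the long heterozygous block of chromosome 3, although its own stop codon, which the other libraries share, was homozygous in 29 of 29 reads.

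**Figure D2:**
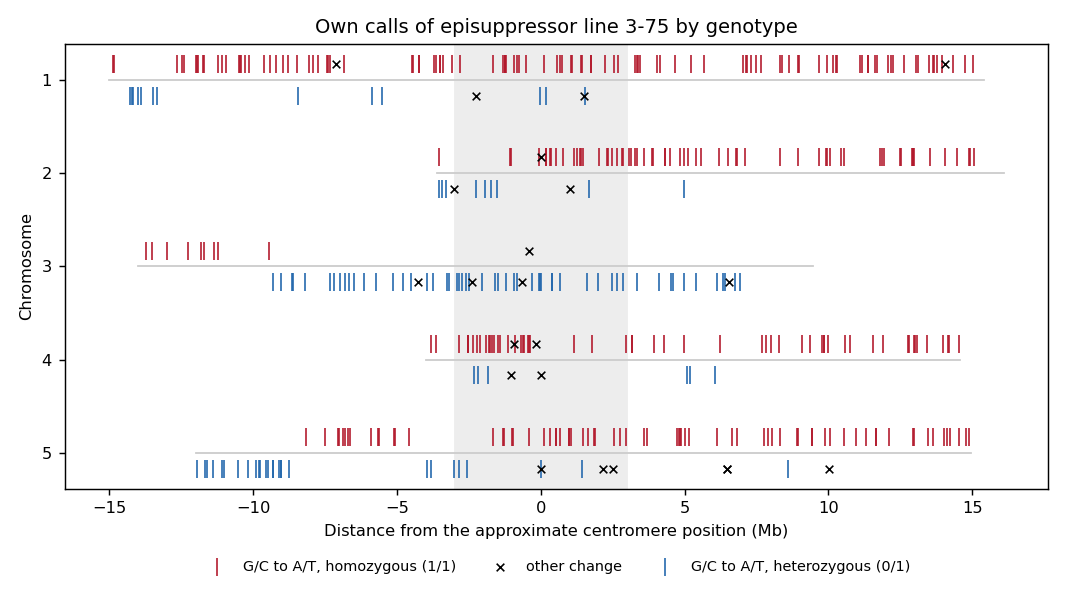
Position of each of the 444 own calls of 3-75 along the 5 chromosomes, as distance in Mb from the approximate centromere (horizontal axis), with homozygous calls above and heterozygous calls below each chromosome line. Crosses are the 22 changes other than G/C to A/T, and the grey band covers 3 Mb on each side of the centromere; heterozygous calls fill chromosome 3 and the left end of chromosome 5, where 54 and 19 of them form blocks.

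Where the genotype changed between blocks, the change could be placed to within the gap between 2 calls. On chromosome 3 the homozygous block ended at 4548584 and the heterozygous block began at 4692259, 143.7 kb apart. On chromosome 5 heterozygous gave way to homozygous between 3251046 and 3850898, and the reverse lay between 7410086 and 8058850. The last change on chromosome 5, back to homozygous, lay between 9448161 and 10354670. On chromosomes 1 and 2 the heterozygous left ends gave way to homozygous calls between 1654004 and 2339370 and between 2068820 and 2515161.

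Lone calls of the other genotype also broke the blocks. There were 12 heterozygous calls with homozygous neighbours on both sides, 9 of them within 3 Mb of a centromere, and their read shares ran from 37.7% to 70.7%. The deepest of them, C13434508T in EXT13 (AT5G35190, an extensin-like cell wall protein), had the called base in 39.6% of its reads, and C12010478T in the non-coding gene or pseudogene AT5G32402 in 37.7%. Both were several times deeper than the median of 18 reads, and whether reads from other copies contributed was not tested. Of lone homozygous calls with heterozygous neighbours there were 3. Among them, G15103334A on chromosome 1 and C1786570T on chromosome 4 lay between calls already counted among the 12, so they broke no heterozygous block.

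The strand of the changed base was ordered along the chromosomes as well. A G/C to A/T change is read on the reference strand as G to A where that strand held the G of the base pair, and as C to T where it held the C. Which base of the pair was altered first cannot be told from the calls. Of the 422 calls, 255 read G to A (60.4%, 55.7 to 65.0) and 167 read C to T. These did not alternate: 385 of 417 pairs of neighbouring calls had the same reading (92.3%, 89.4 to 94.5). Among the common G/C to A/T calls, measured the same way, 188 of 351 pairs did (53.6%, 48.3 to 58.7). Restricted to pairs at least 10 kb apart, a restriction chosen after seeing the data, the shares were 373 of 405 own pairs (92.1%) and 82 of 161 common pairs (50.9%).

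Long stretches had a single reading. Runs of at least 5 consecutive calls with the same reading numbered 15, held 381 of the 422 calls (90.3%) and spanned 98.0 Mb, or 82.2% of the 5 chromosomes. The longest, on chromosome 1 from 5601038 to 30045097, had 97 calls in 24.4 Mb, all G to A, and 18 calls from 1654004 to 5364871 to its left were all C to T. Chromosome 5 changed its reading once in 99 calls: all 60 from 34786 to 14741023 were C to T and all 39 from 14955233 to 26881611 were G to A. Chromosomes 2 and 4 likewise had mostly C to T on the left and G to A on the right. On chromosome 2 the last C to T run of at least 5 calls ended at 12560557 and a G to A run of 21 calls began at 13272288. On chromosome 4 the last such C to T run ended at 5138675 and the first G to A run began at 5776158, and single C to T calls lay after each of its 2 G to A runs. Chromosome 3 began with 22 G to A calls from 255141 to 8258269 and had no C to T call among its 9 homozygous ones.

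The runs of 1 reading did not stop at the borders of the genotype blocks. The C to T run of chromosome 5 held 34 homozygous and 26 heterozygous calls, and passed through 2 heterozygous blocks and the homozygous blocks between and beyond them. The first run of chromosome 3 held 9 homozygous and 13 heterozygous calls on both sides of the genotype change. Conversely, the change of reading on chromosome 1 between 5364871 and 5601038 lay inside a homozygous block, as did the one on chromosome 5 between 14741023 and 14955233.

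Homozygous stretches were purer in their reading than heterozygous ones. Of 291 pairs of neighbours that were both homozygous, 281 had the same reading (96.6%, 93.8 to 98.1), against 70 of 89 pairs that were both heterozygous (78.7%, 69.0 to 85.9). In the 17 homozygous blocks there were 10 changes of reading over 306 calls, and 12 of these blocks held 1 reading only. In the 5 heterozygous blocks there were 17 changes over 91 calls, 11 of them in the block of chromosome 3, where 43 calls read G to A and 11 read C to T. The 2 heterozygous blocks of chromosome 5, with 19 and 5 calls, held C to T only.

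The other lines gave the same order of values. Neighbouring own calls had the same reading in 83.8% of 924 pairs in 2-69, 77.6% of 477 in 2-20 and 90.2% of 570 in 3-72. Pairs that were both homozygous had it in 98.1%, 95.8% and 98.5% in these lines, and pairs that were both heterozygous in 67.2%, 73.0% and 83.5%. The shared pattern is thus not particular to 3-75. Line-specific calls of 3-75 that failed the limits had the same reading in 300 of 496 pairs (60.5%, 56.1 to 64.7). The common calls had 53.6% (48.3 to 58.7), with an overlapping interval. The failing set is mixed, since 82 of its 501 G/C to A/T calls failed the depth limit only, and these were not measured apart.

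**Figure D3:**
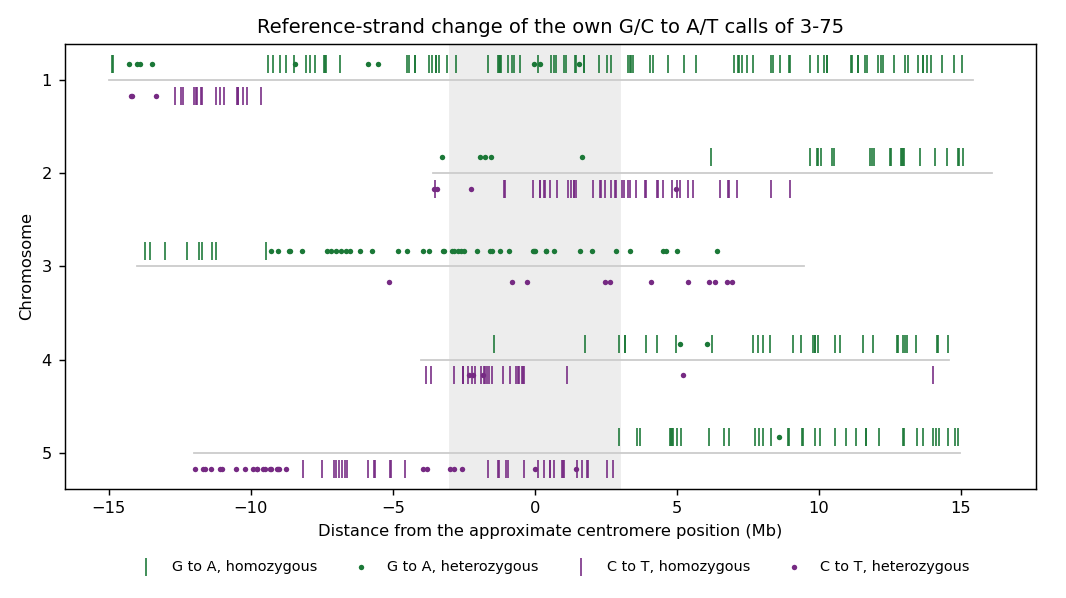
Position of each of the 422 G/C to A/T own calls of 3-75, as distance in Mb from the approximate centromere (horizontal axis), with G to A readings above and C to T readings below each chromosome line; bars are homozygous and dots heterozygous calls. The 97 calls over most of chromosome 1 are all G to A, and chromosome 5 has 60 C to T calls on the left and 39 G to A calls on the right.

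A few calls stood alone inside a run of the other reading, with at least 2 calls of that reading on each side. There were 8 such calls, of which 3 were homozygous. C17995405T lay in GGR (AT4G38460, annotated as a geranylgeranyl reductase) with 46 of 46 reads. G2572035A lay in AT4G05018 with 11 of 11 reads, and G9800191A was synonymous in AT2G23010 with 12 of 13 reads.

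The bases around the changed cytosine, read on the strand that carries it, differed from those of all cytosines of the genome. A cytosine followed by adenine was changed in 75 of 422 calls (17.8%, 14.4 to 21.7), whereas 35.3% of genomic cytosines are followed by adenine. Cytosines followed by thymine made up 40.3% of the changes, against 33.0% in the genome, and those followed by another cytosine 24.9% against 18.8%. Of the common G/C to A/T calls, 25.6% were followed by adenine, 29.2% by thymine and 24.2% by cytosine. The share followed by adenine was 17.2% in 2-69, 19.5% in 2-20 and 17.7% in 3-72, so its low value is not particular to 3-75. By methylation context, CG sites held 17.1% of the changes, against 12.99% of cytosines in the genome, CHG sites 19.7% against 14.2%, and CHH sites 63.3% against 72.8% (H stands for any base but G). The common G/C to A/T calls had 21.1% at CG sites and 62.1% at CHH sites. More CG and fewer CHH sites than in the genome were thus not particular to the own calls. CG sites held 45 of 313 homozygous own calls (14.4%, 10.9 to 18.7) and 27 of 109 heterozygous own calls (24.8%, 17.6 to 33.6), with intervals that just overlap.

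The own calls were spread over arms and pericentromeres far more evenly than the common calls. Within 3 Mb of the approximate centromeres, which is 25.2% of the 5 chromosomes, lay 143 of 444 own calls (32.2%, 28.0 to 36.7), against 1667 of 1957 common calls (85.2%, 83.5 to 86.7). The density of G/C to A/T own calls was 4.30 per Mb there (3.59 to 5.11) and 3.29 per Mb in the arms (2.92 to 3.69). Common calls lay at 55.6 per Mb in the pericentromeres and at 3.25 per Mb in the arms. The 2 intervals of the own calls overlapped slightly. Of the 22 own changes other than G/C to A/T, 14 lay in the pericentromeres.

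A larger share of the own calls than of the common calls lay in coding sequence. Taking the longest coding sequence of each gene, 172 of 444 own calls were coding (38.7%, 34.3 to 43.4), against 185 of 1957 common calls (9.45%). Since coding sequence is rich in G and C, the G/C to A/T calls were set against all G and C of the 5 chromosomes, of which 34.4% are coding: the share was 170 of 422 own calls (40.3%, 35.7 to 45.0), against 34 of 356 common calls (9.55%, 6.91 to 13.1). How much of each kind of sequence was deep enough for a call is unknown, and its part in these shares was not tested. Of the own calls, 124 were missense, 6 gained a stop codon, 3 changed the outer 2 bases of an intron, 42 were synonymous, 19 lay in untranslated regions, 62 in introns, 86 in non-coding genes or pseudogenes, and the rest between genes. The protein-altering calls numbered 133 and lay in 132 of 27444 protein-coding genes, a share of 0.481%. Homozygous ones numbered 90 and lay in 89 genes, or 0.324%.

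Among the 170 coding G/C to A/T own calls, 71.8% were missense (64.6 to 78.0), 24.7% synonymous (18.8 to 31.7) and 3.53% stop-gained (1.63 to 7.49). If every G and C of the longest coding sequences were changed to A or T, 64.5% of the changes would be missense, 30.5% synonymous and 4.99% stop-gained, and of these values the missense share lay just below the interval of the own calls and the other 2 inside theirs. Homozygous calls were missense in 68.1% of 119 and heterozygous calls in 80.4% of 51, with overlapping intervals. The most frequent exchanges were alanine to threonine with 13, serine to phenylalanine with 12, alanine to valine with 11 and leucine to phenylalanine with 10 of the 124.

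**Figure D4:**
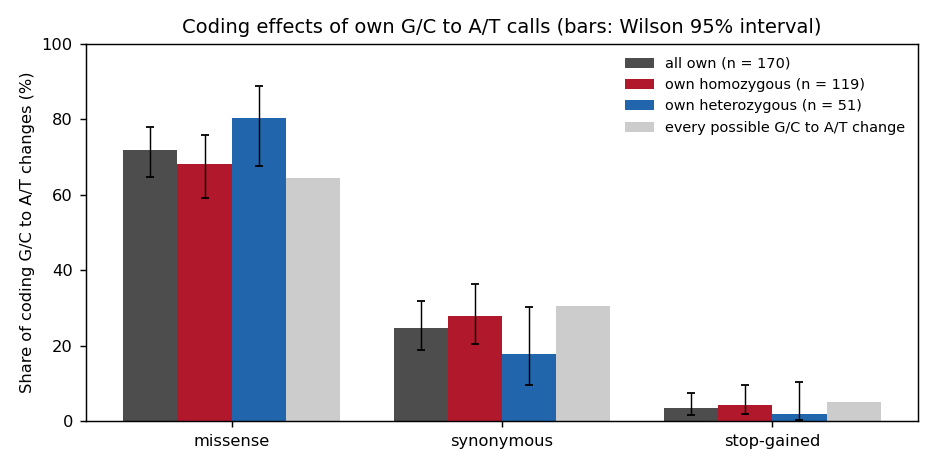
Share of coding G/C to A/T changes (vertical axis, %) that are missense, synonymous or stop-gained, for all own calls of 3-75 (n = 170), the homozygous (n = 119) and the heterozygous ones (n = 51), and for every possible G/C to A/T change; error bars are Wilson 95% intervals. Missense changes make up 71.8% of own coding changes and 64.5% of possible ones.

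The most severe own changes were 8 homozygous and 1 heterozygous stop or splice-site calls. The windows below show each change in its surroundings on the coding strand of the reference (TAIR10 coordinates), 20 bases to each side of the changed base, with the codon that becomes a stop, or the changed splice base, in capitals.
BSK1 codon 26: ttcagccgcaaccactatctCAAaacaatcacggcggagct
AT1G14220 codon 74: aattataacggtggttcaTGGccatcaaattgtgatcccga
SPPL2 codon 388: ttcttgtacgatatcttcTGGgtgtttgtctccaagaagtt
AT5G52850 codon 774: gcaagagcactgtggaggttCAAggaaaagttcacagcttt
AT2G18220 codon 761: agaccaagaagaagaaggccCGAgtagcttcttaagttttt
CYP705A28 codon 148: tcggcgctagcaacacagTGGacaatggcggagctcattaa
EDS5 acceptor of intron 1: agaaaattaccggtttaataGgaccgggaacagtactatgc
NAPRT1 donor of intron 6: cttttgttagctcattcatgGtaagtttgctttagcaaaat
AT1G64430 acceptor of intron 10: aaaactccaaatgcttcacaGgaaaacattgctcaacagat

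BSK1 (AT4G35230, chromosome 4, 16755092 to 16758358), a receptor-associated kinase of brassinosteroid signalling and immunity, carried the stop codon nearest to the start of a protein among these 6. G16757966A turned the CAA codon of the window chr4:16757946-16757986, minus strand, into TAA. The change, Q26*, would remove 487 of 512 residues, and 17 of 17 reads carried it.

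AT1G14220 (chromosome 1, 4858450 to 4859661) is annotated as a member of the ribonuclease T2 family. C4859275T in the window chr1:4859255-4859295, minus strand, made W74* and would remove 155 of 228 residues. It was read in 10 of 10 reads, which allows a true share as low as 69.2% by the exact 95% interval.

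SPPL2 (AT1G63690, chromosome 1, 23618012 to 23622396) encodes a signal peptide peptidase-like membrane protease. G23621212A in the window chr1:23621192-23621232, plus strand, made W388* in 22 of 22 reads and would remove 153 of 540 residues. The same effect held in both annotated coding models.

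The other stop codons lay nearer to the end of the protein or were heterozygous. In AT5G52850 (chromosome 5, 21414935 to 21417616), which encodes a pentatricopeptide repeat protein, a family of organelle RNA-binding proteins, G21415297A made Q774* in 18 of 18 reads and would remove 120 of 893 residues (window chr5:21415277-21415317, minus strand). In AT2G18220 (chromosome 2, 7928015 to 7931953), of the Noc2p family known from ribosome assembly in yeast, C7931837T made R761* in 14 of 14 reads and would remove only 4 of 764 residues (window chr2:7931817-7931857, plus strand). CYP705A28 (AT3G20935, chromosome 3, 7334179 to 7336013), a cytochrome P450, carried G7335309A, or W148*, in 10 of 22 reads within the heterozygous block of chromosome 3 (window chr3:7335289-7335329, plus strand).

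All 3 splice-site changes were homozygous G to A calls at an invariant base. EDS5 (AT4G39030, chromosome 4, 18185437 to 18189224), a plastid transporter of the MATE family needed for salicylic acid synthesis, carried G18186744A at the acceptor of intron 1 in 10 of 10 reads (window chr4:18186724-18186764, plus strand). NAPRT1 (AT4G36940, chromosome 4, 17416855 to 17420252), a nicotinate phosphoribosyltransferase of NAD salvage, carried G17418040A at the donor of intron 6 in 15 of 15 reads (window chr4:17418020-17418060, plus strand). AT1G64430 (chromosome 1, 23933380 to 23936867), annotated as a pentatricopeptide repeat protein, carried G23936068A at the acceptor of intron 10 in 13 of 13 reads, and the base is a splice site in 2 of its 3 coding models (window chr1:23936048-23936088, plus strand). Whether the transcripts are spliced differently cannot be read from DNA.

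Lists of genes for RNA silencing, DNA methylation and chromatin, centromeres and cohesin, meiosis, and DNA repair and replication were then searched, since the title of the series concerns small RNAs and centromeres. Of their 38, 35, 37, 29 and 22 genes, 0, 0, 1, 0 and 0 carried a protein-altering own call. Spread by coding length, the 133 calls would place 0.435, 0.326, 0.365, 0.242 and 0.308 in them, so counts of 0 or 1 do not set any list apart. No gene of the RNA silencing, methylation or meiosis lists held an own call of any kind within the limits. The lists are not complete, so these counts hold for their genes only. SHM7, MEI1 and ASHH1, which carried homozygous missense calls described below, were on none of them.

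The only altered list gene was SMC5 (AT5G15920, chromosome 5, 5195593 to 5199697), which encodes a subunit of the SMC5/6 complex of chromosome maintenance and DNA repair. C5199066T changed L953F near the end of its 1053 residues, in 15 of 15 reads, with a BLOSUM62 score of 0. In the window chr5:5199046-5199086, plus strand, the changed codon is in capitals.
SMC5 codon 953: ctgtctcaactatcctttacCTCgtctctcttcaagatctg
TIL1 (AT1G08260), a catalytic subunit of DNA polymerase epsilon, had the intronic C2601825T in 16 of 16 reads. ICU2 (AT5G67100), the catalytic subunit of DNA polymerase alpha, had the synonymous G26781108A in 16 of 16 reads. Both were homozygous.

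The homozygous missense calls with the lowest BLOSUM62 scores, a measure of how seldom an exchange is seen between related proteins, were spread over several gene functions. Of the 82 homozygous missense calls 33 scored below 0 (40.2%, 30.3 to 51.1), against 17 of 42 heterozygous ones (40.5%, 27.0 to 55.5), so the 2 genotypes did not differ in this respect beyond counting error. A score of -3 was reached by 5 homozygous calls. They were R138C in GGR, P192L in CPSF30, P231L in the chitinase family gene AT2G43610, L682P in MEI1 and P143L in SHM7.

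SHM7 (AT1G36370, chromosome 1, 13696042 to 13698739) encodes a serine hydroxymethyltransferase known for its role in S-adenosylmethionine supply and DNA methylation. G13698149A made P143L in 18 of 18 reads. MEI1 (AT1G77320, chromosome 1, 29056427 to 29062978) encodes a protein with BRCT domains that is needed for male meiosis, and was not on the meiosis list. Its change, T29061092C or L682P, was read in 18 of 18 reads and is 1 of only 7 A/T to G/C own calls. CPSF30 (AT1G30460, chromosome 1, 10770813 to 10775428) encodes an RNA polyadenylation factor, and G10774624A made P192L in 24 of 24 reads. In the following windows the changed codon is in capitals: chr1:13698129-13698169 and chr1:10774604-10774644, both minus strand, and chr1:29061072-29061112, plus strand.
SHM7 codon 143: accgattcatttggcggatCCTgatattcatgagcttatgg
CPSF30 codon 192: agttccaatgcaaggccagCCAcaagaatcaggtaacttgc
MEI1 codon 682: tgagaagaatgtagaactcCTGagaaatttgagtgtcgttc

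A score of -2 was shared by the other 5 homozygous missense calls named by the same rule, which took higher call quality first. They were G278R in AT3G02300 of the RCC1 family with 29 of 29 reads, S197F in AT4G02650 of the ENTH domain family with 25 of 25, and S25F in AT5G19060 with 24 of 24. The others were S134L in MKK9, a MAP kinase kinase, with 29 of 29 reads, and S233L in UMAMIT22, of a transporter family known for amino acid export, with 21 of 21.

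BGLU9 (AT4G27820, chromosome 4, 13857650 to 13860745), a beta-glucosidase, was the only gene with 2 protein-altering own calls. G13859062A made T264I in 11 of 11 reads and G13859071A made S261F in 10 of 10 reads. The changes lie close enough for the same read to span both, and both are homozygous.

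The 22 own calls other than G/C to A/T differed from the rest in several measures. Of these, 16 were heterozygous, with qualities between 51 and 69, and 6 were homozygous (27.3%, 13.2 to 48.2), against 313 of 422 G/C to A/T calls (74.2%). Their heterozygous calls carried the called base in 171 of 382 reads (44.8%). More than 1 called base was listed at 4 of them, all within 3 Mb of a centromere, and at these 4 positions another library listed a different set of called bases. A protein was altered by 2 of the 22.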

How the data were processed

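Genomic DNA of rosette leaves was sequenced as paired reads of 101 nt. The authors deposited 1 list of single-base calls per library in VCF 4.1, made with samtools 0.1.19-44428cd, per the file headers. TAIR10 is the build, and Bismark, Bowtie and SAMtools the tools, that the processing notes of the submitters list, without roles. The call quality is a deposited score, and depth, genotype and the counts of high-quality reads per strand are further deposited fields. The calls hold no record of positions without a change, so a position missing from another library may be unchanged or too shallow there.

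Own calls, blocks, contexts and effects were computed in Python 3.11.15 with numpy 2.4.6, scipy 1.17.1 and Biopython 1.88, and figures with matplotlib 3.10.9. The reference was TAIR10.1, whose chromosome lengths and reference bases matched every call. Effects were read on the longest coding sequence of each gene, and pericentromeres were taken as 3 Mb on each side of approximate centromeres at 15, 3.6, 14, 4 and 12 Mb. On simulated data the block finder and effect caller recovered 100% of 200 planted layouts and of 2000 coding changes. Intervals are 95% Wilson (shares), exact binomial (reads of a call) and exact Poisson (densities).

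Genes were named by a rule: the targeted loci, all stop and splice-site calls, all altered list genes, the 10 homozygous missense calls of lowest BLOSUM62 score, and genes with at least 2 altered positions; EXT13, the genes of lone calls and the genes in the closing observations were chosen after their values were seen. The members, lists and measures were chosen with earlier results of these data known. Of the 77 samples of the series, the libraries without call lists were not used here.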

Additional observations from a re-analysis of the deposited data

Results flagged for a closer look

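Calls on the mitochondrial genome lie outside the 5 chromosomes compared above. In 3-75, 3 mitochondrial calls within the same limits were listed with the same called bases in none of the other libraries, against 1 for 2-69, 0 for 2-20, 1 for 3-72 and 1 for the rdr1 rdr2 rdr6 library. All 3 were called homozygous, with 60 of 60, 95 of 95 and 189 of 189 reads without the reference base, and each listed a pair of called bases, which differs from the nuclear own calls, of which 4 did. Whether another library listed other called bases at these 3 positions was not tested, and neither was the cause.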

How the results depend on the processing

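Over 14 results and 17 alternative settings, 112 of 150 recomputed values stayed within the interval of the value given above, within 1.5 times a count or length, or within 5 percentage points of the median read share. The 112 include values that could not move. Leaving out clusters of 3 calls within 100 bp removed 0 own calls, so its values for all 14 results were fixed. Defining homozygous as at least 90% of reads could alter only the results that use the genotype. With a quality minimum of 30, the G/C to A/T share was 86.9%, the homozygous share 56.8%, the pericentromeric share 37.5%, the share of neighbours with the same reading 86.2%, the share of calls in runs of 1 reading 84.5% and the median read share of heterozygous calls 47.4%. With a quality minimum of 100, 291 own calls were left, and the same shares were 98.6% G/C to A/T, 97.6% homozygous, 95.4% of neighbours and 96.2% in runs; there were 6 homozygous and 0 heterozygous blocks, 0 Mb in heterozygous blocks and a median read share of 63.0%. With a depth minimum of 20, 188 own calls were left, 91.5% G/C to A/T, 61.7% homozygous, with 8 homozygous and 3 heterozygous blocks, 86.8% of neighbours alike, 83.7% in runs, a median read share of 50%, 70 protein-altering and 2 stop or splice-site calls. The median read share thus lay above 50% at the limits used and below it with a quality minimum of 30. The causes were not tested. Absence from the library labelled rdr1 rdr2 rdr6 only gave 87.8% G/C to A/T, 65.1% homozygous, 37.3% pericentromeric, 86.8% in runs and a median read share of 50%. Pericentromeres of 2 and 5 Mb to each side held 23.2% and 46.6%. Blocks of at least 10 calls numbered 11 homozygous and 2 heterozygous, and a single call of the other kind allowed gave 10 homozygous blocks. Chosen after seeing the data, runs of 1 reading with at least 3 calls held 95.3%, with at least 10 calls 82.9%, and with a single call of the other reading allowed 95.3%.

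No paired analysis was possible because each line had 1 library. A homozygous own call of 10 reads allows a true share as low as 69.2%, and the depth of the other libraries at the own positions is unknown. The homozygous share lay between 56.8% and 97.6% over the quality minimums tried, so it describes the limits as well as the plant.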

Other observations

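Further homozygous missense calls lay in genes outside the lists, of which 6 were picked here from the gene annotation after the values were seen, so they stand for no gene group. NRPB1 (AT4G35800), the largest subunit of RNA polymerase II, carried P77S in 39 of 39 reads. ASHH1 (AT1G76710), a SET domain protein, carried T319I in 20 of 20 reads. TFIIS (AT2G38560), a transcript elongation factor, carried E10K in 27 of 27 reads, and SFR6 (AT4G04920), a Mediator subunit, carried L1117F in 14 of 14. AT4G29770, annotated as a target of trans-acting small interfering RNAs, carried A230T in 17 of 17 reads. FZR2 (AT4G22910), a cell cycle regulator of the Fizzy-related family, carried G152D in 12 of 12.

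Calls specific to 3-75 that failed 1 of the 2 limits are described here without a comparison, because the limits themselves sort calls by genotype. Of 83 calls with quality of at least 50 and depth under 10, 98.8% were G/C to A/T (93.5 to 99.8) and 95.2% homozygous. Of 862 calls with quality under 50 and depth of at least 10, 35.5% were G/C to A/T (32.4 to 38.7), 69.0% lay within 3 Mb of a centromere and 228 had a read share whose interval lay below an even share.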
